A study of Homo sapiens with 3 samples.

Results

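The transcripts described here come from 46 genes of the nuclear pore and of the receptors that pass through it: 23 nucleoporin genes, 22 genes of import and export receptors, and RAN. Peaks were assigned to them by the Ensembl gene ID in the peak's name, with 6583 gene IDs in all 3 lists together. Their peaks came to 272, 239 and 257 of 15661, 15486 and 17791 distinct peaks in replicates 1, 2 and 3. The list was drawn up with results of these peak lists known, so the presence of peaks in its genes is a description and not a finding. All 3 samples were of 1 group: HEK293T, an established human embryonic kidney line expressing SV40 large T antigen. Each 15 cm plate received 750 ng of a vector encoding HA-tagged HNRNPA0, which binds RNA and is 1 of the hnRNP A/B proteins, and cells were crosslinked at 254 nm with 0.3 J per square cm. RNA bound to the tagged protein was then mapped by easyCLIP, which sequences short RNA fragments that UV light has bonded to a captured protein. The protein came from a transfected vector, no untransfected or mock library was used here, and the labels do not say whether replicates came from separate plates, so the spread between them may be technical. RNA levels were not measured in these lists, so strong crosslinking and an abundant transcript cannot be told apart.

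Nuclear pores are ring-shaped channels in the nuclear envelope. An outer ring built of the Y complex and an inner ring form the frame, nucleoporins rich in phenylalanine-glycine repeats fill the central channel, and filaments on the cytoplasmic face and a basket on the nuclear face dock cargo. Receptors of the karyopherin family carry cargo through the channel: importin alpha adaptors hand proteins to importin beta, other beta-type importins bind cargo directly, and exportins leave the nucleus with cargo and Ran. Ran, a small GTPase held mainly in its GTP form inside the nucleus, sets the direction by loading exportins and unloading importins.

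Few peaks reached the start of a gene, and these are the places where sequence under a peak could be read from the RefSeq promoter windows (GRCh38.p14). The lines below show 30 bases each for 5 genes, 5′ to 3′ on the strand of the peak, because they are the stretches under peaks of these genes that could be read. Capitals mark the bases under the peak. The NUP98 and NUP50 lines come from the windows of the neighbouring genes PGAP2 and NUP50-DT, which overlap those peaks.
RAN: TTCCAGCCTCAGTCGGACGGGCGCGGAGAC
NUP98: agCGGCGGCGGCGACGGTTTCGTGGGGGCC
NUP50: cgagttacaAAATGGCCGCCCGGAGCGTGT
KPNA2: cgaggtggaccctttgaaCGCAGTCGCCCT
XPO4: gcgctggggcccccagAAGTGATCGCTCAG
The RAN stretch, chr12:130872086-130872115 on the plus strand, lay under a peak with a read number of 6 in replicate 3. The other 30-base stretches lay only partly under a peak. The NUP98 stretch, chr11:3797470-3797499 on the minus strand, had 28 bases under a peak of read number 3 in replicate 1. The XPO4 stretch, chr13:20902697-20902726 on the minus strand, had 14 bases under a peak of read number 3 in replicate 1. The NUP50 stretch, chr22:45164002-45164031 on the plus strand, had 21 bases under a peak of 6 in replicate 3. The KPNA2 stretch, chr17:68035755-68035784 on the plus strand, had 12 bases under a peak of 8 in replicate 3. None of these peaks belonged to a place found in all 3 replicates, and that of KPNA2 lay in a place also held by replicate 2. A run of GGG stood under the peak in RAN and NUP98 and outside it in XPO4. Of 35116 promoter windows, 46.1% held GGG in their last 30 bases. On the strand of the peak, none of the 5 stretches held TAG, ATTTA, or 4 runs of GGG with 1 to 7 bases between them, and 18.4%, 1.25% and 0.382% of the windows held these. The window of NUP98 itself, which reached the same peak by 1 base, was not counted, and it held TAG and GGG outside the peak. The NUP98 and NUP50 lines come from windows of neighbouring genes, so the shares over all windows are not matched to them. A match or its absence in 30 bases says nothing about binding.

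Of the 46 genes, 19 held a region found in all 3 replicates, a region being a set of same-strand peaks that share at least 1 bp. The 19 were NUP42, NUP43, NUP98, NUP107, NUP153, NUP155 and TPR among nucleoporins, KPNA3, KPNA4, KPNA6, KPNB1, IPO5, IPO7, IPO9, TNPO1, XPO1, XPOT and CSE1L among receptors, and RAN. Across 5901 gene IDs with a peak that were tied to a protein-coding gene, 21.8% held such a region. The genes of this group carried more peaks than that background, with a median of 5 per replicate against 1.33, and the share of genes with a region rose with the number of peaks in all genes. No region was held by the 6 members with 1 to 5 peaks over the lists, against 3.65% of all protein-coding gene IDs with as many. Among members with 6 to 15 peaks, 3 of 16 held a region, against 32.6%. Among those with 16 to 30 peaks, 12 of 19 did, against 67.1%, and among those with 31 to 60 peaks 4 of 4 did, against 82.1%. Set beside genes with a similar number of peaks, the members' shares were below or near the background, apart from the class of 4. A peak was found in all 3 replicates for 39 of the 46 genes, and IPO4, an import receptor gene, had none in any list.

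The read number, the whole number that ends each peak's name, was read as the reads in that peak. The lowest in the lists is 3, and the median over member peaks was 5 in each replicate. The genes kept much the same order in each replicate: for the highest read number per gene, Spearman correlations across the 46 genes ranged from 0.84 to 0.90 over the 3 pairs of replicates. These points share libraries and gene models and are not independent. Together the members held 1.66%, 1.54% and 1.38% of the summed read number of nuclear-encoded peaks.

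**Figure D1:**
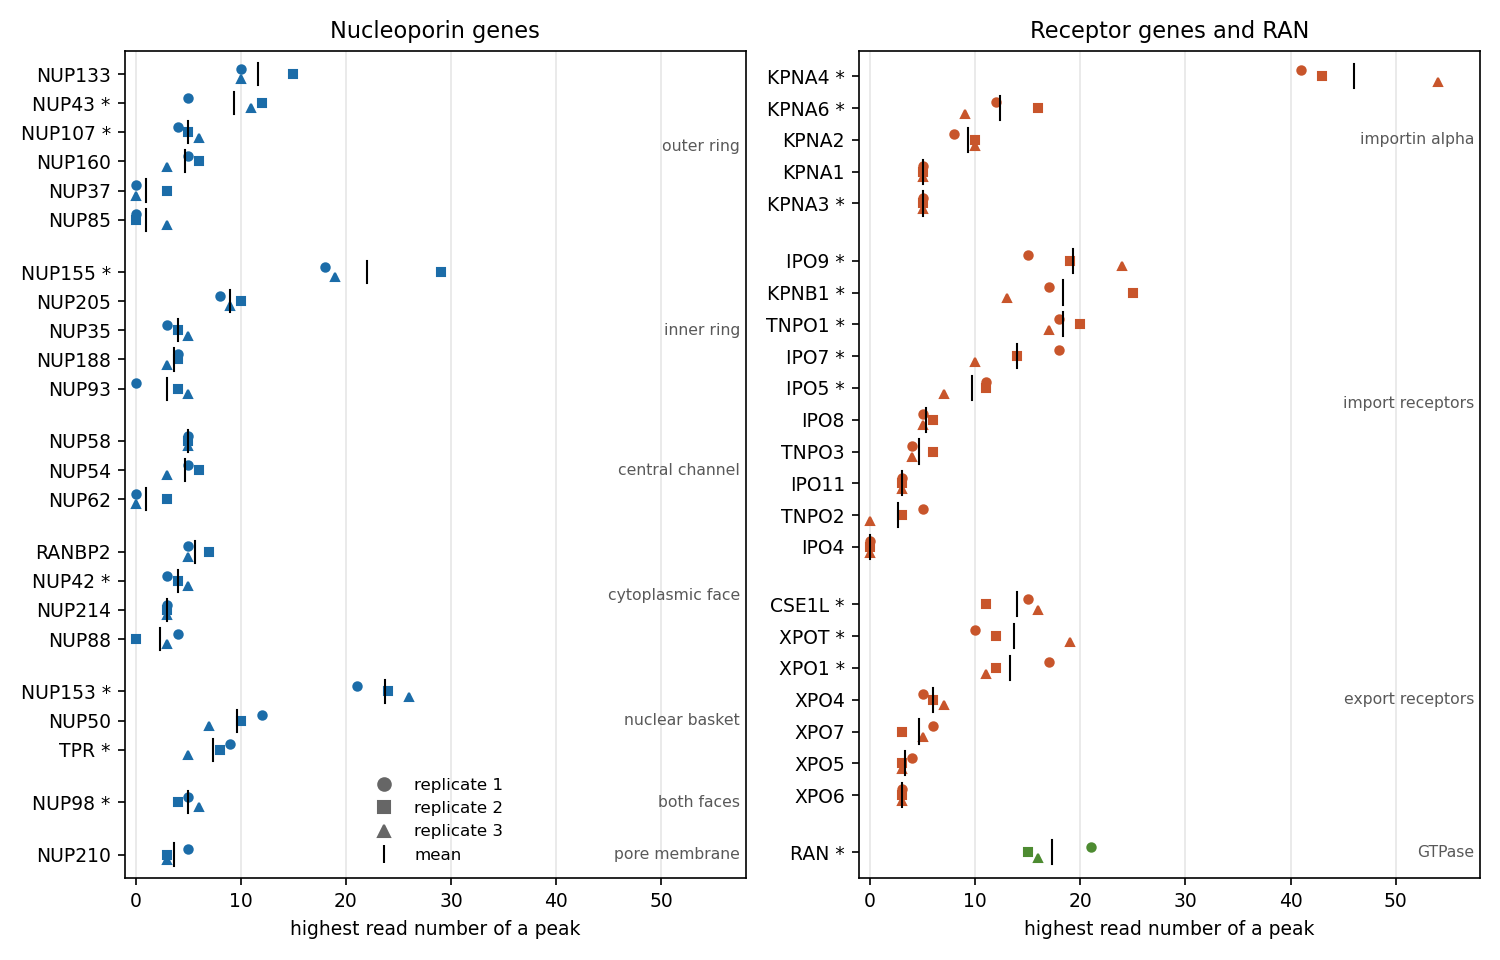
Highest read number of a peak in each gene (horizontal axis), for nucleoporin genes on the left and receptor genes with RAN on the right, grouped by pore part or receptor class. Circles, squares and triangles are replicates 1, 2 and 3, the vertical bar is their mean, 0 stands for no peak, and an asterisk marks genes with a region in all 3 replicates. KPNA4 lies above all others at 41, 43 and 54, on a region inside SCARNA7, and NUP153 and NUP155 lead the nucleoporins.

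The nuclear basket held the most read number per gene, not scaled by length, of the pore parts with more than 1 gene. Its 3 genes, NUP50, NUP153 and TPR, averaged 62.7, 42.3 and 48.3 summed reads per gene in replicates 1, 2 and 3. Inner ring genes averaged 28.8, 28.8 and 22.4, outer ring genes 16.3, 26.7 and 19.2, central channel genes 4.33, 19.7 and 14.7, and cytoplasmic face genes 11.8, 12.5 and 14.8. In each replicate the basket lay above those 4 parts. These are means over few genes, and the order does not hold gene by gene. The inner ring gene NUP155 had a mean summed read number of 75.3, above NUP153 at 67.3, TPR at 58.7 and NUP50 at 27.3. The central channel genes NUP54, NUP58 and NUP62 and the membrane nucleoporin gene NUP210 held no region in all 3 replicates.

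NUP153, a basket nucleoporin that binds importins, had the highest mean of the pore genes for its strongest peak, although NUP155 was above it in replicate 2. Its highest read numbers were 21, 24 and 26 in replicates 1, 2 and 3, which is 23.7 ± 2.52 (SD, n = 3). All 3 values came from the same region, chr6:17615616-17615765 (hg38), whose centre lies 654 bp from the 3' end of a gene of 91889 bp. TPR, the large coiled-coil protein that forms the filaments of the basket, had 20, 12 and 9 peaks, the most of the pore genes over the 3 lists together, and a lower highest read number of 9, 8 and 5. It held 1 region, chr1:186326142-186326238, with 9, 6 and 4. NUP50, a basket protein that helps to release importin alpha, reached 12, 10 and 7 without a region in all 3. Its strongest place, chr22:45186220-45186322, had read numbers of 12 and 10 in replicates 1 and 2 and no peak in replicate 3.

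Frame nucleoporins were led by NUP155, an inner ring component, whose strongest peaks had 18, 29 and 19 reads (22.0 ± 6.08, SD, n = 3). Its region, chr5:37291412-37291578, lies 3358 bp from the 3' end. The other inner ring genes NUP35, NUP93, NUP188 and NUP205 held none. NUP205 had read numbers as high as 8, 10 and 9, yet no overlap between peaks of any pair of replicates. In the outer ring NUP133 had the highest mean, from values of 10, 15 and 10 (11.7 ± 2.89, SD, n = 3), with 3 places found in 2 replicates each and none in 3. NUP43, another outer ring gene, held a region 526 bp from its 3' end with 5, 12 and 11 reads, and NUP107 one with 3, 4 and 5. The outer ring genes NUP37 and NUP85 had 1 peak each in all 3 lists together, both with a read number of 3, and NUP160 had no region in all 3.

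Genes of the cytoplasmic face and the channel had weak peaks, and the median genes of the inner and outer rings were about as weak. Medians of the mean highest read number were 3.50 for the cytoplasmic face and 4.67 for the channel. They were 4.00 for the inner ring and 4.83 for the outer ring. RANBP2, the large Ran-binding protein of the cytoplasmic filaments, reached 5, 7 and 5 (5.67 ± 1.15, SD, n = 3), with 6, 6 and 10 peaks and no region in all 3. None of the 8 RGPD genes, near-identical copies of RANBP2 that could share its reads, had a tied gene ID with a peak. NUP42 held a region with a read number of 3 in each replicate, the lowest possible, while NUP88 and NUP214 held none. NUP58, a channel nucleoporin, had 2, 12 and 9 peaks with a highest read number of 5 in each replicate. NUP62, another channel nucleoporin, had 1 peak, in replicate 2, at a position shared with IL4I1. NUP98, found on both faces of the pore and in the nucleoplasm, had highest read numbers of 5, 4 and 6 (5.00 ± 1.00, SD, n = 3) and held 1 region with 4, 3 and 5. NUP210, a nucleoporin of the pore membrane, reached 5, 3 and 3 (3.67 ± 1.15, SD, n = 3).

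Importin alpha genes held regions in 3 of 5 cases. KPNA4 had the highest read numbers of the whole group, at 41, 43 and 54 (46.0 ± 7.0, SD, n = 3), but these came from a region inside the interval of SCARNA7, a small Cajal body RNA. The region, chr3:160514949-160515186, lies within SCARNA7 at 160514907 to 160515236 and is named jointly with it. Peaks in SCARNA7 held 69.8% ± 6.43 of the summed read number counted for KPNA4 (SD, n = 3). Outside SCARNA7 the highest read number of KPNA4 averaged 5.00, and its other region had 4, 6 and 3. KPNA6, an importin alpha adaptor, had highest values of 12, 16 and 9 (12.3 ± 3.51, SD, n = 3) and 2 regions near its 3' end, at 602 and 3848 bp from it. KPNA3 held 1 region with 5, 5 and 3. KPNA2, an adaptor gene of 11120 bp, reached 8, 10 and 10, and 3 places in it were found in 2 replicates each. KPNA1 reached 5 in every replicate and held no region in all 3.

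Import receptors of the beta family held regions in 5 of 10 genes. TNPO1, transportin 1, which imports hnRNP A1 and related proteins by their M9-type signals, had 15, 12 and 18 peaks and 5 regions. Its highest read numbers were 18, 20 and 17 (18.3 ± 1.53, SD, n = 3). Of the 5 regions, 3 lay in a stretch of 2377 nt, chr5:72908735-72911111, that held 39.0% ± 8.95 of the read number of the gene (SD, n = 3) in 2.43% of its length. Such stretches, here and in the genes below, were drawn around regions, so a high share in a short length follows partly from that choice. IPO9, an importin for histones and ribosomal proteins, had 15, 19 and 24 (19.3 ± 4.51, SD, n = 3). Its 3 regions lay in 4763 nt near the 3' end, the strongest at chr1:201879494-201879627. KPNB1, importin beta, reached 17, 25 and 13 (18.3 ± 6.11, SD, n = 3) and held 1 region, chr17:47683256-47683384, with 16, 25 and 12. IPO7, an importin for ribosomal proteins, had 18, 14 and 10 (14.0 ± 4.00, SD, n = 3). Its region, chr11:9440455-9440609, held 18, 7 and 8 of these, and so the highest peaks of replicates 2 and 3 lay elsewhere. IPO5 had 1 region with 11, 11 and 6. TNPO2, TNPO3, IPO4, IPO8 and IPO11 held none. TNPO2, a close relative of TNPO1, had 2, 1 and 0 peaks, that of replicate 2 inside SNORD135.

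Export receptors held regions in 3 of 7 genes. XPO1, the exportin for leucine-rich export signals also called CRM1, had 21, 21 and 18 peaks, the most of the group over the 3 lists together, with TNPO1 level at 18 in replicate 3. Its highest read numbers were 17, 12 and 11 (13.3 ± 3.21, SD, n = 3). Of its 5 regions, 3 lay in 941 nt, chr2:61492109-61493049, which held 24.2%, 27.9% and 23.0% of the read number of the gene in 1.55% of its length. Another lay 237 bp from the 3' end, and the remaining one lay 846 bp from the 5' end, with 6, 10 and 8. XPOT, the exportin for transfer RNA, had 10, 12 and 19 (13.7 ± 4.73, SD, n = 3). A pair of its 3 regions fell in 251 nt, chr12:64420172-64420422, about 34% along the gene, with 21.5%, 30.4% and 48.5% of its read number. CSE1L, the exportin that returns importin alpha to the cytoplasm, had 15, 11 and 16 (14.0 ± 2.65, SD, n = 3) and 1 region, chr20:49066198-49066288, 39.4% along the gene. XPO4, XPO5, XPO6 and XPO7 held no region in all 3, and their highest read numbers lay between 3 and 7.

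RAN held 6 regions in a gene of 5613 bp, more than any other gene of the group. Its peaks numbered 10, 6 and 11, and its highest read numbers were 21, 15 and 16 (17.3 ± 3.21, SD, n = 3). The strongest region was chr12:130875881-130876043. The 6 regions ran from 833 bp after the start of the gene to 537 bp before its end, counted from their centres. RAN had 16 peaks per 10 kb of gene and replicate, and XPO1, the next highest, had 3.29. The gene interval includes introns and RNA levels were not measured, so these densities are not a measure of binding alone. RAN has 9 processed copies named RANP1 to RANP9 in RefSeq, and a gene ID tied to RANP1 had 1 peak, with a read number of 3 in replicate 3.

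The 22 listed receptor genes carried more read number per gene than the 23 listed nucleoporin genes in each replicate. The comparison holds for these lists only, which were drawn up with results known. Among the other transport genes counted below, 2 of 8 receptor genes and 9 of 10 nucleoporin genes had a peak. Receptors averaged 46.0, 40.5 and 44.5 summed reads per gene in replicates 1, 2 and 3, and nucleoporins 23.2, 25.0 and 22.0. The ratio was 1.98, 1.62 and 2.02, and the difference of means, 43.7 ± 2.81 against 23.4 ± 1.47 (SD, n = 3), exceeded the spread between replicates. Per 10 kb of gene, with RANBP2 set aside, receptors held 6.26, 5.52 and 6.05 reads and nucleoporins 3.74, 3.96 and 3.41. Without the peaks in SCARNA7 and other small RNA genes the receptor mean was 40.8 ± 3.08 (SD, n = 3). Regions in all 3 replicates were found in 11 of 22 receptor genes and in 7 of 23 nucleoporin genes, with 25 and 7 regions, against 21.8% of protein-coding gene IDs with a peak. Receptor genes also had more peaks, 6.59 ± 0.670 per gene and replicate against 4.43 ± 0.151 (SD, n = 3). Among genes with 16 to 30 peaks over the lists, 6 of 9 receptor and 5 of 9 nucleoporin genes held a region, and among those with 6 to 15 peaks 2 of 7 and 1 of 9. The part of peak number in this difference was not tested. No nucleoporin gene held more than 1 region, whereas 6 receptor genes did. These 6 include KPNA4, 1 of whose 2 regions was that in SCARNA7, which is also counted among the 25. Under a stricter rule, overlap of 50% of both peaks, 6 receptor and 5 nucleoporin genes held a region. Both sides were measured in the same 3 samples, so no test between groups of samples applies, and an exact sign-flip permutation test over 3 replicates could not go below a two-sided p of 0.25. Genes are not replicates of a class, and both classes ranged widely. The mean of the highest read number ran from 1.00 to 23.7 in nucleoporins and from 0 to 46.0 in receptors. Medians were 4.67 and 7.67, against 3.33 over all protein-coding gene IDs with a peak. The receptor range and median include the peaks of KPNA4 in SCARNA7. Without peaks in small RNA genes KPNA4 averaged 5.00. The highest receptor mean was then 19.3, in IPO9, below the 23.7 of NUP153.

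**Figure D2:**
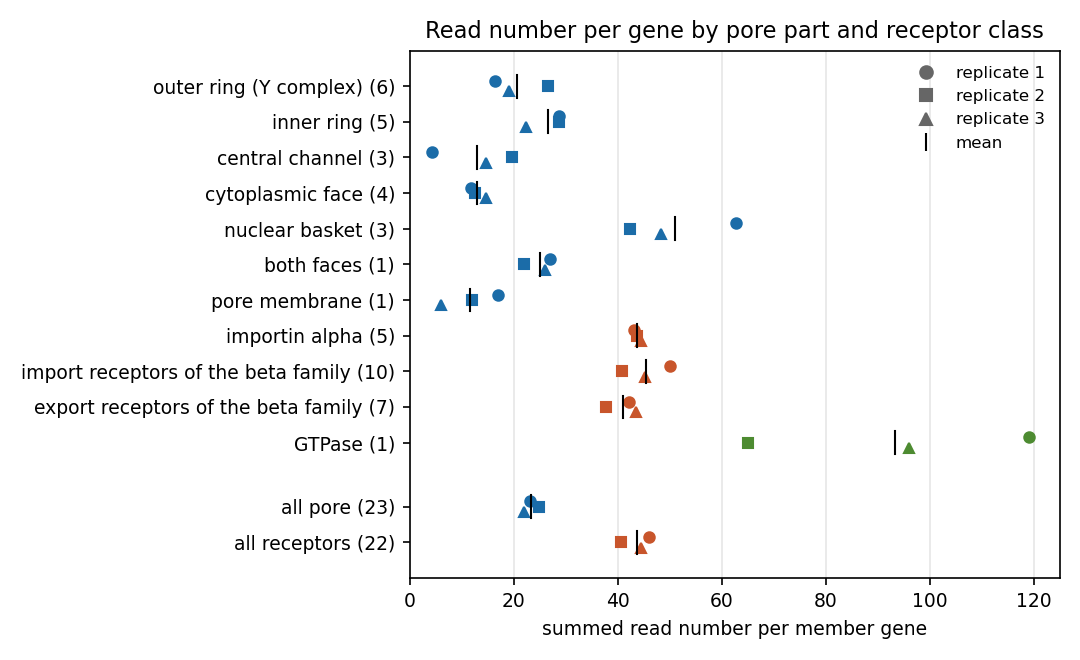
Summed read number per gene (horizontal axis) for each pore part and receptor class, with the number of genes in parentheses and the 2 sides in the lowest rows. Circles, squares and triangles are replicates 1, 2 and 3 and the vertical bar is their mean. Receptors lie at 40.5 to 46.0 and nucleoporins at 22.0 to 25.0.

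In each replicate a smaller share of nucleoporin peaks than of receptor peaks lay in regions shared by all 3. Of nucleoporin peaks, 7 of 104, 8 of 104 and 7 of 98 lay in such a region, which is 7.19% ± 0.482 (SD, n = 3). Of receptor peaks 27 of 158, 29 of 129 and 28 of 148 did, or 19.5% ± 2.74, and of all nuclear-encoded peaks 16.2% ± 1.22 (SD, n = 3). A few genes held many of the 84 receptor peaks in regions: 17 came from XPO1, 16 from TNPO1 and 10 from IPO9. Among peaks of 10 reads and above, a limit chosen after the values were seen, 8 of 30 nucleoporin peaks and 45 of 68 receptor peaks lay in such a region, or 39 of 62 receptor peaks without those in small RNA genes. Of all nuclear-encoded peaks that high, 66.7% ± 1.22 did (SD, n = 3), so that the receptor share lay near the background and the nucleoporin share below it. Of the 45 receptor peaks, 14 came from TNPO1 and 6 from KPNA4. The 8 nucleoporin peaks came from NUP153, NUP155 and NUP43. The 22 others included 7 each from NUP153 and NUP155 and 4 from NUP133, with read numbers up to 16. The gap was much smaller when 50% of both peaks had to overlap, at 4.91% for nucleoporins and 6.95% for receptors. Pairwise overlap between replicates, the share of peaks of 1 list met by a peak of another, averaged 15.5% for nucleoporins, 28.2% for receptors and 26.0% for all peaks over the 6 ordered pairs.

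**Figure D3:**
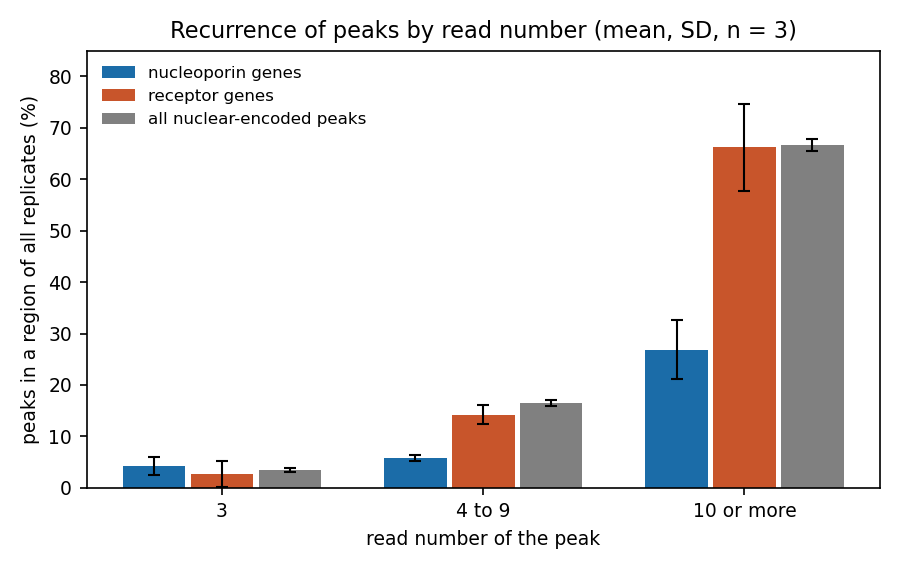
Share of peaks inside regions shared by all 3 replicates (vertical axis, %), for read numbers of 3, of 4 to 9, and of 10 and above. Bars are means of 3 replicates and error bars are SD, in blue for nucleoporin genes, orange for receptor genes and grey for all nuclear-encoded peaks. In the highest class the nucleoporin bar is at 26.9% and the receptor bar at 66.3%.

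For regions found in all 3 replicates, the share near the 3' ends of these genes was close to that in other genes. Of the 38 regions, 15 were centred in the last 10% of the gene, which is 39.5% with a 95% exact binomial interval of 24.0% to 56.6%. Of 2008 regions in other protein-coding genes of 5000 bp or more, 40.7% did. The interval covers counting error only, and regions of a gene are not independent. Nucleoporins had 3 of 7 regions there and receptors 11 of 25. The share of members was lower under other settings: 28.3% for regions in 2 or more replicates and 29.5% to 33.9% with 1 replicate left out. Over all peaks it averaged 27.7% across the 3 replicates, with 21.1% for nucleoporins and 32.8% for receptors. Shares in other genes under these settings are not given here. Of the 19 genes with a region, 11 had one in the final 10%: NUP43, NUP153, NUP155, KPNA3, KPNA6, KPNB1, IPO9, TNPO1, XPO1, XPOT and RAN. For 8 of them it was the strongest region. The first 1000 bp held 3 regions, those of XPO1 and 2 of RAN. Exonic and intronic places were not separated here.

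**Figure D4:**
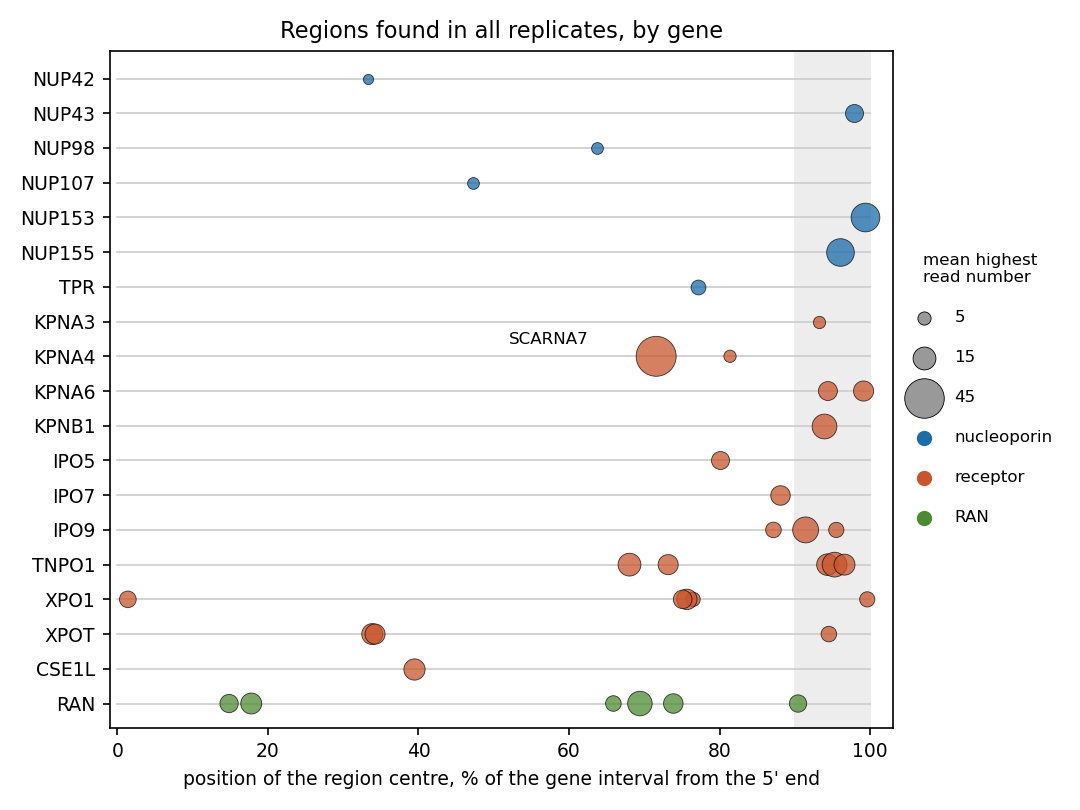
Position of each region found in all 3 replicates as a share of the gene interval from the 5' end (horizontal axis, %), 1 row per gene. The area of a circle follows the mean highest read number, colour marks nucleoporins, receptors and RAN, and the grey band is the final 10% of the gene, which holds 15 of the 38 regions.

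Further genes of transport, listed by function, held 3 regions. Of 10 other nucleoporin genes 9 had a peak and 1, NDC1, a membrane nucleoporin, held a region. Its highest read numbers were 16, 13 and 13. Of 8 other receptor genes, among them IPO13 and the messenger RNA exporter NXF1, 2 had a peak and none held a region. Of 5 genes of the Ran cycle, NUTF2, which carries Ran back into the nucleus, and RCC1, the exchange factor that loads Ran with GTP, held 1 region each. The highest read numbers were 7, 11 and 8 in NUTF2 and 10, 14 and 11 in RCC1. The region of RCC1 was named jointly with SNHG3, a small nucleolar RNA host gene that overlaps it. In all, 15 of these 23 genes had a peak and 3 of the 15 held a region, a share near the 21.8% of protein-coding gene IDs with a peak.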

How the data were processed

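The authors deposited 1 peak list per replicate on hg38. Per the submitters' processing notes, bedtools and deepTools were used. Which aligner and peak caller made the lists is not given in the sources used here. A deposited peak has a p-value, all under 0.05 with no adjustment stated, and a name ending in a whole number, read here as reads in the peak. Lines with the same interval and strand were counted once. With pandas 2.3.3, a gene ID was tied to the RefSeq gene that contained at least 90% of its peak centres on the same strand where a strand was given: 44 members had a gene ID of their own, NUP62 shared one and IPO4 had none. Of 19 lines under a second ID within KPNA6, 17 had intervals already counted. RefSeq gives RANBP2 an interval that spans other genes, so it was left out of positions and densities. The merging of peaks and the overlap shares were tested on simulated peaks, and the other steps were not part of that test. Values in full are given for the 12 genes with the highest mean of the highest read number and for the leading gene of each list without one of these. Members and lists were chosen with earlier results of these data known, and no list was tested.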

Additional observations from a re-analysis of the deposited data

How the results depend on the processing

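Requiring 50% of both peaks to overlap gave 12 genes with a region and 20 regions, all 12 among the 19, with 6 receptor genes, pairwise overlap of 14.9%, and 4.91% of nucleoporin and 6.95% of receptor peaks in a region. Regions in 2 or more replicates numbered 109 in 34 genes, 16 nucleoporin and 17 receptor genes, and held 24.2% and 39.2% of their peaks. Keeping the 50% of peaks with the lowest p-values left 167 peaks per replicate and 4 nucleoporin genes, with a receptor to nucleoporin ratio of 2.18, pairwise overlap of 30.2% and 23.5% of receptor peaks in a region. A read number of 5 or more left 140.0 peaks per replicate and 3 nucleoporin genes, with a ratio of 2.37 and shares of 7.75% and 27.0%. With each replicate left out, a region then needing 2 lists, there were 59 to 64 regions and 9 to 12 nucleoporin genes, with 13.5% to 17.3% of nucleoporin and 25.8% to 30.1% of receptor peaks in a region. Merging touching peaks, or leaving out small RNA genes, kept 19 genes with a region. Receptors had the higher share of peaks in a region under all 10 settings, the main one included. Leaving out small RNA genes, and every alternative for the shares of peaks in a region, was chosen after seeing the data. Motifs in the regions were not run, for want of a genome. No paired analysis was possible because the labels give 1 group. Weak peaks limit these results: 11 of the 38 regions stayed under a read number of 10 in all replicates.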
